A study of Mus musculus with 4 samples.

Results

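Chemerin signalling was followed here through 3 genes, Rarres2, Cmklr1 and Ccrl2, out of 19505 genes measured on the arrays. They were chosen by name, as the ligand chemerin, its signalling receptor and its atypical receptor, and each had 1 probe set. The samples were 4 populations, labelled as macrophages, sorted from the hearts of wild-type C57BL/6N mice, 15 to 16 weeks old. The mice had undergone transverse aortic constriction (TAC), in which a ligature on the aorta raises the pressure the heart pumps against. Cells of 6 hearts were mixed before sorting, and each population, called the Ccrl2, Trem2, CD163 or CD74 library after its title, was hybridised to 1 Clariom S mouse array. All 4 populations came from TAC hearts, and no library of unoperated hearts was analysed here. The labels put sampling at 8 weeks after TAC in one field and at 1 week in another, and they give CD9 in place of CD74 and Lyve1 in place of CD163 in some fields. With 1 library for each population, no difference below has a replicate error or a test, and precision is limited by how few arrays there are. In such bulk samples, fewer cells of a type and less RNA per cell cannot be told apart.

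Chemerin is secreted as an inactive precursor, and serine and cysteine proteases at sites of inflammation activate it by trimming its C terminus. The trimmed peptide attracts macrophages, natural killer cells and plasmacytoid dendritic cells through Cmklr1, a receptor coupled to inhibitory G proteins. Ccrl2 binds chemerin without known G protein signalling and is thought to hold it at the cell surface for Cmklr1 on neighbouring cells, while Gpr1 is a further chemerin receptor. Ccrl2 is known as a gene that inflammatory stimuli induce in macrophages and neutrophils.

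Promoter sequences were available for both receptors and are shown, and the sequences used had no window for Rarres2. Each runs over the 250 bases before the outermost annotated transcript start, from RefSeq on GRCm38.p6, 5′ to 3′ on the gene's own strand. The Ccrl2 window is chr9:111057519-111057768 and the Cmklr1 window is chr5:113643604-113643853, both on the minus strand. Capitals mark the matches to the motifs searched.
Ccrl2: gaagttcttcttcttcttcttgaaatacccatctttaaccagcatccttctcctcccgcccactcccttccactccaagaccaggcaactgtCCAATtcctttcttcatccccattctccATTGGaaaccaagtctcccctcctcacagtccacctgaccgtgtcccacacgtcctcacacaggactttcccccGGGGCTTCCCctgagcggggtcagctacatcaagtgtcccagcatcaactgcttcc
Cmklr1: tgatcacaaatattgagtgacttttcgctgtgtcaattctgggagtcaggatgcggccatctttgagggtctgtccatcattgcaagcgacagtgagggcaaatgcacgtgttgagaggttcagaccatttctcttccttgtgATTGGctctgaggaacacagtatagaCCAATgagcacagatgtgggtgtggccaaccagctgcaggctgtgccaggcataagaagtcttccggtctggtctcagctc
The search covered both strands for the NF-kB consensus, the AP-1 motif TGANTCA, the PU.1 motif GAGGAAGT, the core GAAANNGAAA of the interferon response element and the CCAAT box. The Ccrl2 window held 1 match to the NF-kB consensus, GGGGCTTCCC, which reads on both strands and lies 56 to 47 bases before the start. That consensus occurred in 7.03% of 27025 such windows of all genes. Each window also held 2 CCAAT boxes, 1 on each strand, a motif found in 34.5% of all windows. Neither window held the AP-1, PU.1 or interferon motifs, which occurred in 6.85%, 2.42% and 3.05% of windows. These are matches of letters in this stretch only. The motifs did not overlap one another in either window.

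Values are the deposited log2 values. A background ceiling was set in each library at the 95th percentile of 1500 genes that these cells should hardly use, those of keratin-associated proteins and of olfactory, taste and vomeronasal receptors. The ceiling was 5.67 in the Ccrl2 library, 5.51 in Trem2, 6.28 in CD163 and 6.53 in CD74, and 38.2%, 41.8%, 25.6% and 18.6% of all genes lay above it in the same order. The CD74 array thus measured the fewest genes. Of 7 macrophage markers, 7 were above the ceiling in the Ccrl2, Trem2 and CD163 libraries and 4 in CD74. Csf1r, which encodes the M-CSF receptor, had 19.59 in Ccrl2, 19.19 in Trem2, 18.60 in CD163 and 9.40 in CD74. The markers Fcgr1, Mertk and Cx3cr1 lay under the ceiling in the CD74 library, which is therefore called by its title only. As a gauge of resolution, 9 genes had several probe sets above the ceilings, and over 25 cases the probe sets of 1 gene disagreed on the difference between a pair of libraries by 0.08 to 3.54 log2 units, with a median of 0.96.

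**Figure D1:**
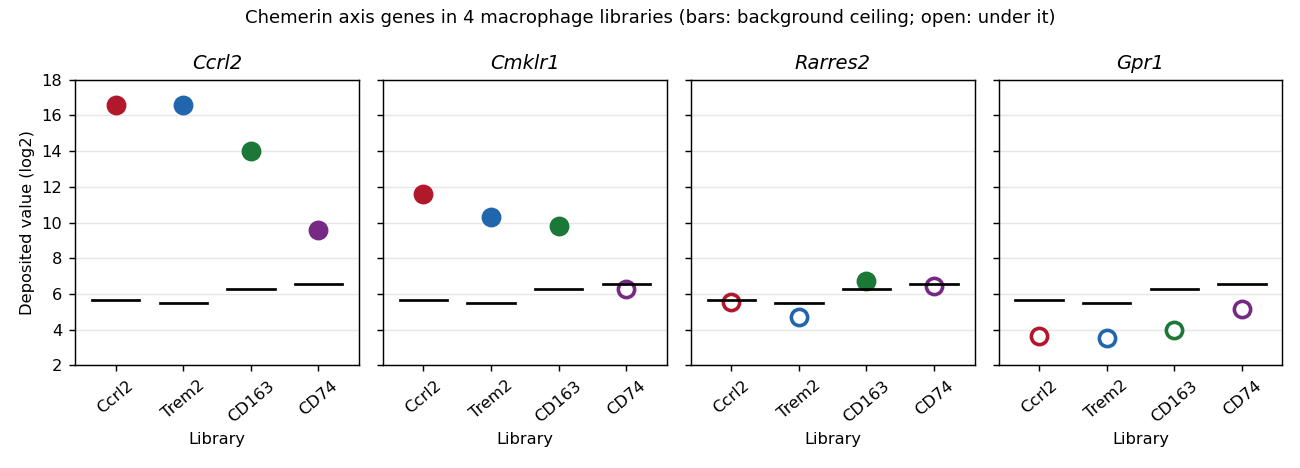
Deposited log2 value (vertical axis) of Ccrl2, Cmklr1, Rarres2 and Gpr1 in each of the 4 libraries (horizontal axis), 1 point per library, with a short line at that library's background ceiling and open points for values under it. Ccrl2 lies above the ceiling in all 4 libraries, Cmklr1 in 3, Rarres2 in 1 and Gpr1 in none.

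The ligand was close to background. Rarres2, which encodes chemerin, had 5.54 in the Ccrl2 library, 4.68 in Trem2, 6.71 in CD163 and 6.44 in CD74. Only the CD163 value passed its ceiling, by 0.43 log2 units. There, 26 of the 1500 background genes, or 1.73%, had values as high or higher, against 7.27% in Ccrl2, 32.1% in Trem2 and 5.67% in CD74. With the ceiling at the 99th percentile of the background genes, which is 6.92 in CD163, Rarres2 was under it in all 4 libraries.

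Where CD163 was compared, the bound rule gave Rarres2 small differences. A value under a ceiling was set at the ceiling, so the fold is a lower bound. Rarres2 was at least 2.06-fold lower in the Ccrl2 library than in CD163, where 5.03% of 7891 genes were at least 2-fold lower. It was at least 2.30-fold lower in Trem2 than in CD163, where 6.07% of 8532 genes were. The ceiling of CD163 is itself the higher one in both comparisons. Of the background genes above a ceiling in either library, 18.4% were at least 2-fold lower in Ccrl2 than in CD163, and 29.3% in Trem2 than in CD163. The Rarres2 difference from CD163 was -0.87 in the Ccrl2 library after each column was centred on its median, which is under 2-fold. In Trem2 it was -1.03 after that centring. With columns given the same distribution by quantile normalization, Rarres2 was at least 2.40-fold lower in Ccrl2 and 2.67-fold lower in Trem2 than in CD163. On that scale 13.3% and 15.0% of genes were at least 2-fold lower. Between CD163 and CD74 the bound was 1.13-fold on deposited values, and in the remaining 3 pairs both values were under the ceiling.

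Chemerin is known from fibroblasts, adipocytes and the liver. Of 7 fibroblast markers, 6 were above the ceiling in the Ccrl2 library, 6 in Trem2, 3 in CD163 and 2 in CD74. Over all genes the shares above the ceiling were 38.2%, 41.8%, 25.6% and 18.6% in the same order. The log2 of the summed linear fibroblast marker values was 13.30 in Ccrl2, 13.12 in Trem2, 9.14 in CD163 and 9.24 in CD74. Decorin, encoded by Dcn, had 12.65 in Ccrl2, 12.67 in Trem2, 7.01 in CD163 and 4.71 in CD74, and was the largest value in the Ccrl2 and Trem2 sums. Of the 6 markers above a ceiling, 5 were highest in Ccrl2 and 1 in Trem2 on deposited values. Col1a1 had 7.92 in Ccrl2, 6.91 in Trem2, 6.82 in CD163 and 7.87 in CD74. After quantile normalization it was highest in CD74. Col1a2 was above the ceiling in CD74, at 6.72, and under it in CD163, at 6.17. All 5 mesothelial markers were under the ceiling in every library. Of 4 adipocyte markers, Adipoq, Plin1 and Lep were under it everywhere, and Fabp4, which macrophages and capillary endothelium also use, had 14.88 in Ccrl2, 17.09 in Trem2, 12.32 in CD163 and 11.27 in CD74. The part of cells carrying these markers in the Rarres2 values was not tested.

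The signalling receptor gene was measured in 3 of the 4 libraries, and its highest value was in the Ccrl2 library. Cmklr1 had 11.59 in the Ccrl2 library, 10.32 in Trem2, 9.82 in CD163 and 6.26 in CD74. The CD74 value lay 0.27 log2 units under the ceiling, and 8.20% of background genes had values as high there. The difference between the Ccrl2 and Trem2 libraries was 1.27 log2 units, or 2.41-fold. That is over the median disagreement between probe sets, 0.96, but within the range of those disagreements. In that comparison 5.43% of 8773 genes passed 2-fold upward, and 2.48% had a difference as large as that of Cmklr1. After quantile normalization, which gives all columns the same distribution, the difference was 2.44-fold.

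Against the CD163 library the Cmklr1 excess depended on the scaling. It was 3.41-fold in the Ccrl2 library over CD163 on deposited values, where 28.1% of 7891 genes passed 2-fold upward, and 1.41-fold after quantile normalization. Cmklr1 was 1.41-fold higher in Trem2 than in CD163 on deposited values and 1.73-fold lower in Trem2 after quantile normalization, so the order of these 2 libraries turned. That deposited difference, 0.50 log2 units, is also under the median disagreement between probe sets. The second place in the order of Cmklr1 levels is therefore not settled between Trem2 and CD163. After quantile normalization the lead of the Ccrl2 library over CD163, 0.495 log2 units, was likewise under that median disagreement.

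The CD74 library had the lowest Cmklr1 value on both scalings. Cmklr1 was at least 33.4-fold higher in Ccrl2 than in CD74, at least 13.8-fold higher in Trem2 than in CD74 and at least 9.78-fold higher in CD163 than in CD74. In these comparisons 32% of 7902, 32.6% of 8522 and 19.3% of 5842 genes were at least 2-fold higher. After quantile normalization the bounds were 13.8-fold, 5.65-fold and 9.78-fold in the same order. With the ceiling at the 99th percentile of the background genes they were 20.4-fold, 8.45-fold and 5.98-fold on deposited values. All 7 macrophage markers were at least 2-fold higher in Ccrl2 than in CD74, with a median difference of 4.79 log2 units, beside 0.26 over all genes tested. Their part in the Cmklr1 difference was not tested.

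Natural killer cells and plasmacytoid dendritic cells of mice also carry Cmklr1, so their markers were set beside it. Of 6 NK cell markers, 0 were above the ceiling in the Ccrl2 library, where Cmklr1 was highest, against 6 in Trem2, 1 in CD163 and 3 in CD74. Over all genes the shares above the ceiling were 38.2%, 41.8%, 25.6% and 18.6% in the same order. These shares stand beside the dendritic marker counts below as well. The log2 of the summed linear NK marker values was 7.58 in Ccrl2, 10.57 in Trem2, 8.14 in CD163 and 13.27 in CD74. Gzma, a granzyme, had 4.54 in Ccrl2, 9.71 in Trem2, 6.42 in CD163 and 13.01 in CD74, and was the largest value in the CD74 sum. Klrb1c and Nkg7 were also highest in CD74. On deposited values Ncr1, Klrk1 and Prf1 were highest in Trem2, at 7.42, 6.86 and 6.56, and under the ceiling in CD74, at 6.48, 5.99 and 6.27. Among 5 plasmacytoid dendritic markers, 2 passed the ceiling in Ccrl2, 3 in Trem2, 1 in CD163 and 1 in CD74, and the defining marker Siglech was under it in all 4. The log2 sums of this list were 8.91, 9.57, 7.91 and 8.24 in the same order. Cox6a2 was the largest value in each of these sums, with 8.24 in Ccrl2, 8.67 in Trem2, 7.21 in CD163 and 6.82 in CD74. It was the only marker of the list above the ceiling in CD163 and CD74. Of 5 conventional dendritic markers, Cd209a alone passed a ceiling, with 6.10 in Ccrl2, 6.53 in Trem2 and 6.87 in CD74. The part of these cell types in the Cmklr1 values was not tested.

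The atypical receptor gene was the member with the widest range. Ccrl2 had 16.58 in the Ccrl2 library, 16.59 in Trem2, 14.00 in CD163 and 9.58 in CD74, all above the ceiling, and no background gene was as high in any library. The lowest value still lay 3.05 log2 units over its ceiling. The Ccrl2 and Trem2 libraries, the top of the order, were 0.01 log2 units apart. RNA of the gene in the Ccrl2 title thus did not separate them. The median over all 8773 genes in that comparison was also -0.01. After quantile normalization the difference was 0.0675, so the order of these 2 libraries turned without either difference being of a readable size.

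The other 5 differences of Ccrl2 were past 2-fold on deposited, quantile-normalized and median-centred values, but their sizes were not fixed. Ccrl2 was 5.98-fold higher in the Ccrl2 library than in CD163 and 6.02-fold higher in Trem2 than in CD163, where 27.6% of 8532 genes were at least 2-fold higher. After quantile normalization these were 2.52-fold and 2.41-fold. Genes with a difference at least as high made up 3.59% of those tested in the Ccrl2 against CD163 comparison and 4.52% in Trem2 against CD163. Ccrl2 was 128-fold higher in the Ccrl2 library than in CD74, 129-fold higher in Trem2 than in CD74 and 21.4-fold higher in CD163 than in CD74. After quantile normalization these were 26.8-fold, 25.6-fold and 10.6-fold. Only 0.62% of genes tested differed as far upward between Ccrl2 and CD74, 0.329% between Trem2 and CD74 and 1.88% between CD163 and CD74.

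**Figure D2:**
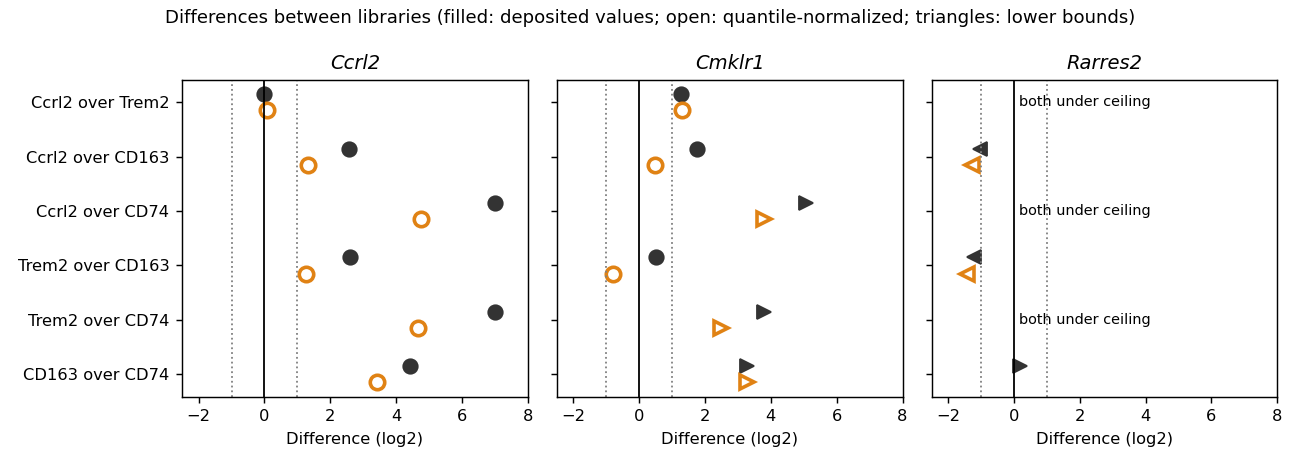
Difference in log2 value (horizontal axis) between each of the 6 pairs of libraries (rows) for Ccrl2, Cmklr1 and Rarres2, with filled symbols for deposited and open symbols for quantile-normalized values. Triangles are lower bounds, dotted lines stand at 2-fold, and a bound of 0 is not drawn. Ccrl2 is near 0 between the Ccrl2 and Trem2 libraries, where Cmklr1 is 1.27, and the Trem2 over CD163 difference of Cmklr1 turns sign with the scaling.

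Markers of other cell types that carry Ccrl2 were unevenly spread over the libraries. Neutrophils are a known source, and all 6 neutrophil markers were highest in Trem2, where 6 were above the ceiling, against 4 in the Ccrl2 library, 1 in CD163 and 4 in CD74. Over all genes the shares above the ceiling were 38.2%, 41.8%, 25.6% and 18.6% in the same order. These shares stand beside the mast cell and endothelial counts below as well. The log2 of the summed linear neutrophil marker values was 9.85 in Ccrl2, 17.15 in Trem2, 8.55 in CD163 and 9.58 in CD74. Retnlg, a resistin-like gene of neutrophils, had 6.83 in Ccrl2, 16.81 in Trem2, 5.17 in CD163 and 7.15 in CD74. Of 5 mast cell markers, 2 passed the ceiling in Ccrl2, 3 in Trem2, 0 in CD163 and 2 in CD74, with log2 sums of 9.29 in Ccrl2, 13.85 in Trem2, 7.99 in CD163 and 8.89 in CD74. Hdc, which makes histamine in mast cells and neutrophils, had 8.89 in Ccrl2, 13.77 in Trem2, 5.85, under the ceiling, in CD163 and 7.48 in CD74. It was the largest value in the Ccrl2 and Trem2 sums. In Trem2, Cpa3 had 9.54 and Kit 5.77, while Fcer1a and Ms4a2 were under the ceiling in all 4 libraries. Endothelial cells can also carry Ccrl2, and 4 of 5 endothelial markers passed the ceiling in Ccrl2, 4 in Trem2, 3 in CD163 and 1 in CD74. Their log2 sums were 11.51, 11.84, 8.99 and 8.23 in that order, and Cdh5, the endothelial cadherin, had 10.86, 11.31, 7.47 and 6.36. The part of these cells in the Ccrl2 values was not tested.

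The further chemerin receptor and the other atypical receptors were not above background. Gpr1 had 3.64 in the Ccrl2 library, 3.54 in Trem2, 3.97 in CD163 and 5.18 in CD74, all under the ceiling, and at least 36.4% of background genes were as high in each library. The other atypical chemokine receptor genes, Ackr1 to Ackr4, were under the ceiling in all 4 libraries. Ccrl2 was thus the one gene among these 5 atypical receptors that was measured above background.

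The wider pathway comprised 61 genes. Probe sets existed for 54 of them, and 31 passed the ceiling in 1 library or more. Of the 31, 21 (67.7%) were at least 2-fold apart between the highest and the lowest library, beside 55.2% of all 9346 such genes, and all 3 members were. Between the Ccrl2 and Trem2 libraries, 6 of 31 pathway genes were higher by 2-fold or more and 4 lower, against backgrounds of 5.43% and 7.92%. In Ccrl2 against CD163, 8 of 26 were higher and 1 lower, beside 28.1% and 5.03% of all genes, and in Ccrl2 against CD74, 14 of 26 were higher and 0 lower, beside 32% and 7.8%. In Trem2 against CD163, 9 of 31 were higher and 2 lower, beside 27.6% and 6.07%. In Trem2 against CD74, 15 of 30 were higher and 0 lower, beside 32.6% and 7.62%, and in CD163 against CD74, 9 of 24 were higher and 3 lower, beside 19.3% and 9.98%. Median pathway differences were -0.10, 0.44, 1.64, 0.35, 0.96 and 0.42 log2 units over these 6 pairs, beside -0.01, 0.30, 0.26, 0.25, 0.28 and 0.09 over all genes tested.

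The direction of these counts leaned on the scaling. Of all genes called in either direction, 84.8% were higher in Ccrl2 against CD163 on deposited values and 41.5% after quantile normalization. The same shares were 80.4% and 37.3% in Ccrl2 against CD74, 82.0% and 40.1% in Trem2 against CD163, 81.1% and 37.0% in Trem2 against CD74, and 66.0% and 42.9% in CD163 against CD74. After quantile normalization the pathway counts were 4 higher and 3 lower of 26 in Ccrl2 against CD163, beside 9.45% and 13.3% of all genes on that scale. They were 8 and 4 of 26 in Ccrl2 against CD74, beside 12.1% and 20.3%, 4 and 7 of 31 in Trem2 against CD163, beside 10.02% and 15.0%, and 8 and 4 of 30 in Trem2 against CD74, beside 10.6% and 18.1%. The pathway counts of the remaining pairs moved less. They were 8 and 3 of 24 in CD163 against CD74, beside 15.9% and 21.2%. In Ccrl2 against Trem2 they were 6 and 2 of 31, beside 3.83% and 4.23%.

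Among the proteases that process chemerin, 12 of 18 were under the ceiling in every library, beside 52.1% of all genes, including Elane, Ctsg and Prtn3, the serine proteases of neutrophil granules, and Plg, the precursor of plasmin. Plau, the urokinase that turns plasminogen into plasmin, had 11.90 in the Ccrl2 library, 9.21 in Trem2, 8.99 in CD163 and 5.06 in CD74. It was 6.45-fold higher in Ccrl2 than in Trem2, and the CD74 value was under the ceiling. Cathepsin S, encoded by Ctss, had 17.03 in Ccrl2, 16.83 in Trem2, 16.12 in CD163 and 12.73 in CD74. Cathepsin L, encoded by Ctsl, had 9.17 in Ccrl2, 8.67 in Trem2, 7.85 in CD163 and 5.21, under the ceiling, in CD74. Plau and both cathepsins had the library order Ccrl2, Trem2, CD163, CD74 on deposited values, as Cmklr1 did. That order was not particular to them. Genes of other lists, such as Csf1r, Gnai2, Gsn and Kdr, had it too, while others, such as Adgre1 and Rgs1, did not. After quantile normalization CD163 stood above Trem2 for Plau, both cathepsins and Cmklr1. Ctss was then highest in CD163, while CD74 was lowest for these genes on both scalings. Tpsb2, a mast cell tryptase, passed the ceiling in Trem2 alone, at 6.96.

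Of 15 genes of the Gi and arrestin pathway, 14 passed the ceiling in 1 library or more, beside 47.9% of all 19505 genes, and 11 of the 14 were at least 2-fold apart, beside 55.2%. Gnai2, the main inhibitory G protein subunit of leukocytes, had 17.31 in Ccrl2, 17.20 in Trem2, 17.08 in CD163 and 14.89 in CD74, but after quantile normalization its range was under 2-fold and CD74 was no longer the lowest. Rgs1, which shortens G protein signals, had 16.44 in Ccrl2, 14.72 in Trem2, 11.37 in CD163 and 13.54 in CD74. Its relative Rgs2 had 13.19 in Ccrl2, 12.37 in Trem2, 8.40 in CD163 and 9.86 in CD74. Both regulators were lowest in CD163 on both scalings, whereas Ccrl2 and Cmklr1 were lowest in CD74. Pik3cg, the catalytic subunit of a kinase that G proteins activate, had 9.35 in Ccrl2, 10.13 in Trem2, 7.04 in CD163 and 6.85 in CD74.

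Among 5 related chemoattractant receptor genes above the ceiling somewhere, 3 were lowest in CD74, as Cmklr1 was, but stood lower in Trem2 than in CD163 on both scalings. C3ar1, the receptor for complement C3a, had 15.92 in the Ccrl2 library, 13.17 in Trem2, 15.36 in CD163 and 5.54, under the ceiling, in CD74. C5ar1, for C5a, had 13.10 in Ccrl2, 11.98 in Trem2, 12.63 in CD163 and 7.12 in CD74. Ptafr, for platelet-activating factor, had 11.33 in Ccrl2, 10.29 in Trem2, 10.92 in CD163 and 6.07, under the ceiling, in CD74. These 3 were highest in Ccrl2 with CD163 next on deposited values, and highest in CD163 with Ccrl2 next after quantile normalization, with Trem2 behind these 2 libraries on both scalings. By contrast, C5ar2, the second C5a receptor, had 7.46 in Ccrl2, 7.34 in Trem2, 8.04 in CD163 and 8.33 in CD74. Ltb4r1, for leukotriene B4, passed the ceiling in Trem2 alone, at 5.60.

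Some retinoid and nuclear receptors control Rarres2 in other tissues. The list of 9 genes held retinoid and nuclear receptors and the non-receptor gene Rarres1. Of these, 6 passed the ceiling in 1 library or more, beside 47.9% of all genes, and 3 of the 6 were at least 2-fold apart, beside 55.2%. Rara, a retinoic acid receptor, had 8.17 in Ccrl2, 9.45 in Trem2, 7.06 in CD163 and 7.46 in CD74. Its partner Rxra had 8.11 in Ccrl2, 6.52 in Trem2, 7.43 in CD163 and 5.96, under the ceiling, in CD74. Pparg, the adipocyte and alveolar macrophage regulator, had 6.24 in Ccrl2 and 7.14 in Trem2 and was under the ceiling in CD163 and CD74. Nr1h3, the oxysterol receptor LXRα, had 5.68 in Ccrl2 and 6.51 in CD163 and was under the ceiling in the other two. Nr1h4, the bile acid receptor that drives Rarres2 in liver, was under the ceiling in every library.

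**Figure D3:**
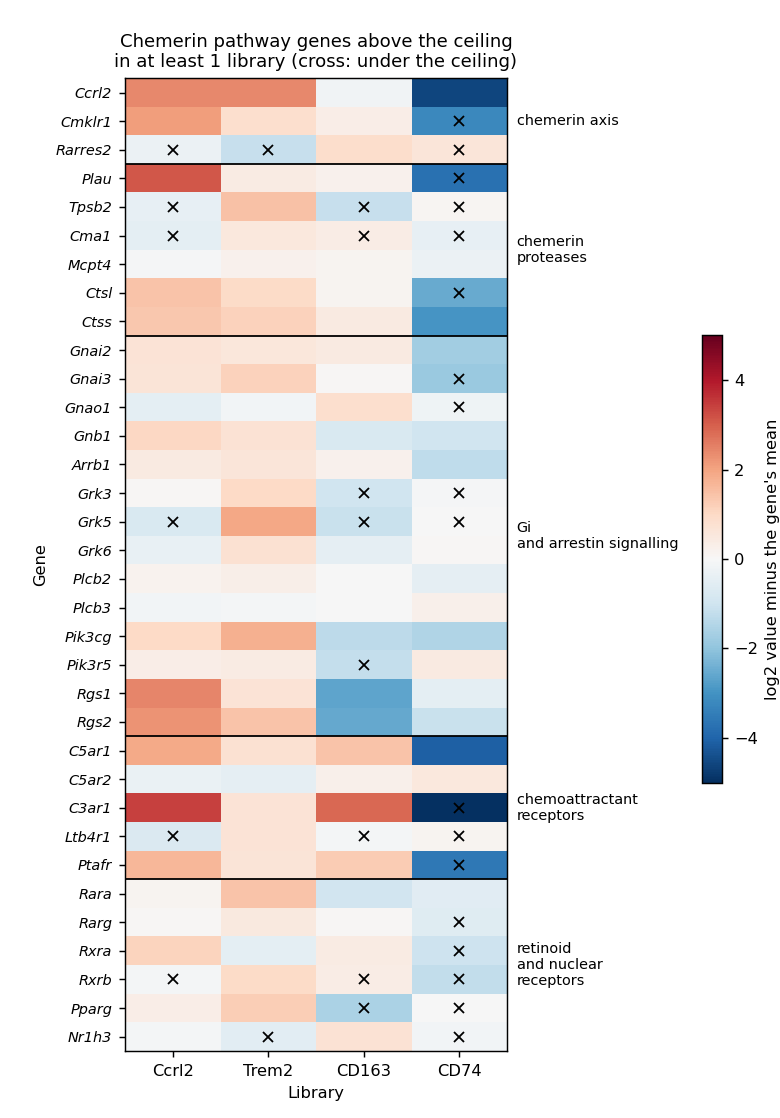
Chemerin axis and pathway genes that passed the ceiling in 1 library or more (rows), with colour for the log2 value minus the gene's mean over the 4 libraries (columns) and a cross where the value is under the ceiling. Ccrl2, Plau, Ctsl and Ctss are all lowest in CD74, Rgs1 and Rgs2 are lowest in CD163, and C3ar1 and C5ar1 are above their means in Ccrl2, Trem2 and CD163.

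Genes with a similar library profile were ranked by the Euclidean distance between the 4 log2 values after each gene's mean was subtracted, among genes above the ceiling in the same libraries and saturated in none. With 4 points this is a description. For Ccrl2, 3 of 2659 candidates lay within 1 log2 unit. Nearest was Entpd1, the ectonucleotidase CD39, at a distance of 0.74, with 15.36 in Ccrl2, 14.75 in Trem2, 13.16 in CD163 and 8.06 in CD74. Next came Anxa5, the phosphatidylserine-binding annexin, at 0.98, Glipr1 at 0.99, Sirpa, the receptor for CD47, at 1.11 and Ftl1, the ferritin light chain, at 1.20. Entpd1, Anxa5 and Glipr1 were still among the 5 nearest after quantile normalization. Cmklr1 itself, under the ceiling in CD74 and so not a candidate, lay at 2.17 from Ccrl2.

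Cmklr1 had a more common profile, with 55 of 1759 candidates within 1 log2 unit. Nearest was Abcc3, an organic anion exporter, at 0.41, with 11.02 in Ccrl2, 9.96 in Trem2, 9.80 in CD163 and 6.07, under the ceiling, in CD74. The others were Zfp992, a zinc finger gene, at 0.41, Adam17, the protease that sheds TNF, at 0.43, Slc7a8, an amino acid transporter, at 0.43 and Gna12, a G protein subunit, at 0.45. Only Abcc3 stayed among the 5 nearest after quantile normalization.

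The profile of Rarres2 was shared by many low genes, background genes among them. Of 257 candidates, those above the ceiling in CD163 alone, 104 lay within 1 log2 unit, and 44 were background genes. Among the 20 nearest, 4 were background genes, or 20% beside 17.1% of the candidates. The 5 named nearest were Myoz3, a sarcomere protein gene, at 0.24, Cby2 at 0.27, Gadl1 at 0.28, Iqcm at 0.29 and Cactin at 0.34, with values from 6.41 to 7.07 in CD163.

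**Figure D4:**
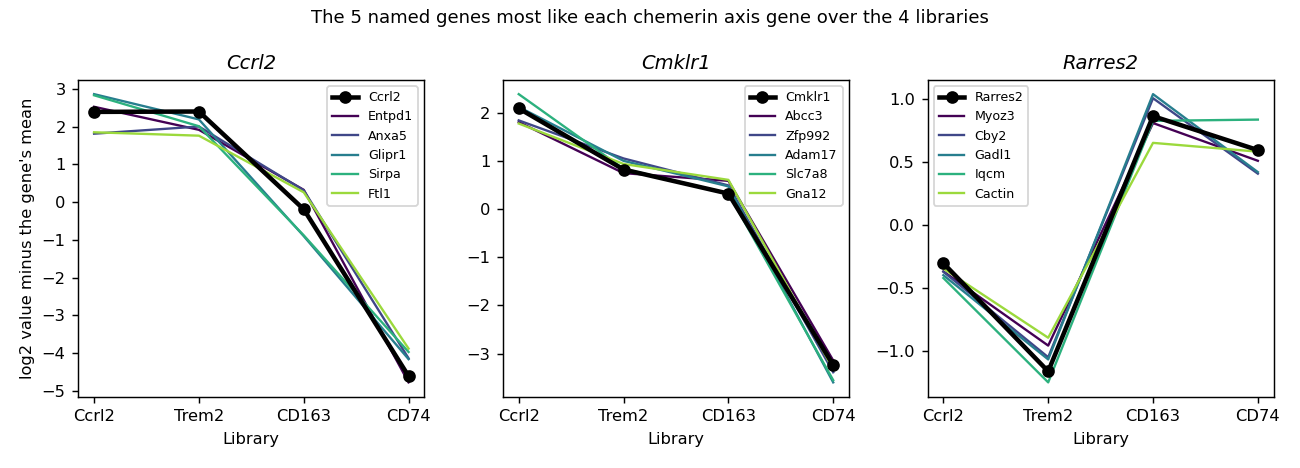
Log2 value minus the gene's mean (vertical axis) over the 4 libraries (horizontal axis) for Ccrl2, Cmklr1 and Rarres2 (black, with points) and the 5 named genes nearest to each (thin lines). The profiles of Ccrl2 and Cmklr1 fall towards CD74, and that of Rarres2, which is above its ceiling in CD163 alone, is highest there.

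The 18 nearest protein-coding genes, 3 on each side of each member in the GRCm38.p6 gene table, were set beside the members. Of the 17 with a probe set, 12 were under the ceiling in every library, beside 52.1% of all genes. Beside Ccrl2, these were Lrrc2, Rtp3 and Ltf, which encodes lactoferrin and had 4.66 in Ccrl2, 5.06 in Trem2, 4.96 in CD163 and 6.05 in CD74. On its other side Lrrfip2 had 7.62 in Ccrl2, 7.39 in Trem2, 6.52 in CD163 and 5.55, under the ceiling, in CD74. Epm2aip1 had 5.81 in Ccrl2 and 5.88 in Trem2 and was under the ceiling in CD163 and CD74. Beside Cmklr1, Sgsm1, Wscd2, Ficd and Sart3 were under the ceiling everywhere. Iscu, an iron-sulphur cluster scaffold, had 8.40 in Ccrl2, 9.21 in Trem2, 7.02 in CD163 and 6.61 in CD74. Aym1 had 5.74 in Ccrl2, 5.31, under the ceiling, in Trem2, 6.64 in CD163 and 6.66 in CD74. Beside Rarres2, Sspo, Atp6v0e2, Gm5111 and Repin1 were under the ceiling everywhere, and Zfp775 passed it in Ccrl2 alone, at 5.73. Lrrc61, whose gene model overlaps that of Rarres2, was also under the ceiling everywhere, with 4.84 in Ccrl2, 4.19 in Trem2, 4.25 in CD163 and 4.85 in CD74.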

How the data were processed

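Total RNA of 4 sorted populations was amplified with a pico-input whole-transcript kit and hybridised to Clariom S mouse arrays, per the labels' protocols. Robust multichip average (RMA) was used by the authors to make the deposited log2 values, per the labels' protocols. The log2 scale itself was read from the values. GeneSpring is named in the labels, and Affymetrix Expression Console in the submitters' processing notes. The annotation build of the array and the settings of RMA are not stated in the labels or files used here. Column distributions differ.

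Of 28846 probe sets, 6640 were controls and 2634 had no symbol in the platform annotation; the other 19572 had 1 symbol each, all matched to the GRCm38.p6 gene table by gene number. For 55 genes with several probe sets the one with the highest mean was used. A gene was called at least 2-fold apart when the log2 difference, with values under a ceiling set at it, reached 1. Genes under the ceiling in both libraries of a pair were left out. With 1 library per group no test was possible, and no p-value or standard error is given. Alternatives were quantile normalization, median centring, a ceiling at the 99th percentile, no ceiling, 1.5-fold and 4-fold thresholds and the mean over probe sets. Quantile normalization without the CD74 library was chosen after seeing the data. Members, lists, motifs and naming rules were chosen with earlier results of these data known. Named were the members, Gpr1, the list members with the widest range (up to 4 per pathway list and 3 per marker list), the 5 nearest profiles, leaving out predicted, small RNA, antigen receptor, histone, chemosensory and sex-linked genes, and the 3 neighbours on each side that had a probe set. Further list members, such as Elane, Siglech, Nr1h4, Ncr1, Klrk1, Prf1, Fcer1a, Ms4a2, Col1a1 and Col1a2, were named after their values were seen. The calling and ranking rules were tested on simulated data whose columns shared the same base values, unlike the columns here. The shifted genes lay well above the ceilings, so that run does not show how the rules act near them. Python 3.11.15, pandas 2.3.3 and numpy 2.4.6 were used.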

Additional observations from a re-analysis of the deposited data

How the results depend on the processing

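No paired analysis was possible because each population had 1 library, and for the same reason no library could be left out of its own group. After quantile normalization of the 4 columns, or of 3 without the CD74 library, the difference of Ccrl2 between the Ccrl2 and Trem2 libraries was 0.0675 and 0.0767 (against -0.01), that of Cmklr1 in Trem2 over CD163 turned to -0.79 and -0.84, and that of Cmklr1 in Ccrl2 over CD163 was 0.50 and 0.51, under 2-fold. Median centring brought Rarres2 in Ccrl2 over CD163 to -0.87. At a 4-fold threshold Cmklr1 in Ccrl2 over Trem2 (1.27) and over CD163 (1.77) and Rarres2 in Ccrl2 (-1.04) and in Trem2 (-1.20) over CD163 were no longer called. With the 99th percentile ceiling Rarres2 was under the ceiling in every library and gave no difference. The same ceiling lowered the Cmklr1 bounds over CD74 to 4.35 in Ccrl2, 3.08 in Trem2 and 2.58 in CD163. The mean over probe sets changed no call of a member, since each has 1 probe set. The cause of the turns under quantile normalization was not tested.

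Of all genes, 1171 were at least 2-fold apart in Ccrl2 against Trem2, and 707 after quantile normalization. Without a ceiling the counts over the 6 pairs, Ccrl2 against Trem2, CD163 and CD74, Trem2 against CD163 and CD74, and CD163 against CD74, were 2159, 5141, 6686, 5466, 6987 and 5253, and at 4-fold 136, 693, 1323, 877, 1382 and 687. At 1.5-fold the 4 counts that moved by more than 1.5 times were 2956 (Ccrl2 against Trem2), 4158 (Ccrl2 against CD163), 4374 (Trem2 against CD163) and 2802 (CD163 against CD74). Quantile normalization changed the pathway genes called lower in Ccrl2 against Trem2 to 2 (4.23% of all genes). It gave 4 higher and 3 lower in Ccrl2 against CD163 (all genes 9.45% and 13.3%), 8 and 4 in Ccrl2 against CD74 (12.1% and 20.3%), 4 and 7 in Trem2 against CD163 (10.02% and 15.0%), and 8 and 4 in Trem2 against CD74 (10.6% and 18.1%). Plasmacytoid dendritic markers at least 2-fold apart numbered 1 in place of 2, and conventional dendritic markers 1 in place of 0. Of the 5 genes nearest Ccrl2 and Cmklr1 it kept 3 and 1. Values under a ceiling limit what the arrays resolve, above all for Rarres2, Gpr1 and Cmklr1 in CD74.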
